A study of Emberiza melanocephala with 4 samples.

Results

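The library labelled refractory was set against the library labelled late stimulated, gene by gene. A gene entered the comparison when its exons were covered at 10 FPKM or more in either library or in both. FPKM is coverage scaled by exon length and by the amount aligned, so levels can be set side by side between genes of a library, while between libraries they carry the scaling difference given below. Where 4 values are given for a gene they run from sensitive through early and late stimulated to refractory. The file header of the library titled and labelled as sensitive carries a different abbreviation from its title, so values under that label are only as sure as the label. The rule gave 1164 of the 2239 genes that any library named, 929 of them with a gene symbol and 235 with only an Ensembl identifier of the reference bird. Of the 1075 genes left out, 878 were covered below 10 FPKM and 197 had no coverage in either library.

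The libraries came from black-headed buntings (Emberiza melanocephala), migratory songbirds, caught from the wild. The labels give total RNA from testis in 4 testicular states with 1 library each: sensitive, early stimulated, late stimulated and refractory. They give no age, day length or number of birds for any of the 4 groups. With 1 library per state there is no spread between replicates and no test, so every difference below describes these libraries and not the states.

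In birds that breed by day length, lengthening days drive growth of the testis through the pituitary gonadotropins, which act on Leydig and Sertoli cells. After weeks of long days the birds become photorefractory: the testis regresses although the days remain long. Regression removes most of the dividing and maturing germ cells, and the bird must pass through short days before long days can stimulate it again.

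Aligned bases came to 428.4 Mb for late stimulated and to 318.1 Mb for refractory, against 120.5 Mb in sensitive and 200.8 Mb in early stimulated. Each library's assembly listed a transcript without a reference match only from a coverage of 2.5 up. This floor is 5.84 FPKM in late stimulated and 7.86 FPKM in refractory, but 20.8 FPKM in sensitive and 12.5 FPKM in early stimulated. A gene without coverage is therefore given as 0 but can lie anywhere below about the floor of its library. Uncovered in sensitive thus does not mean absent there. The label of testis was checked against marker genes, and few testis markers reached 10 FPKM. Of 4 germ cell markers named in the files, GFRA1, MEIG1 and TDRD6 were below 10 FPKM in both libraries, and only UCHL1, which neurons also make, entered the comparison. None of 3 named markers of Sertoli, Leydig and peritubular cells (INHA, INHBA and TSPO) and neither of the connective tissue and vessel wall markers (COL8A1 and KCNMB1) did so, and no marker of blood and immune cells was named. By contrast 13 of 14 named photoreceptor genes and 27 of 28 named genes of neurons and synapses entered, against 929 of 1509 named genes with a symbol. These counts leave out symbols that no library named. The lists held 54 photoreceptor symbols, 81 of neurons and synapses, 52 of germ cells and 30 of Sertoli, Leydig and peritubular cells. The testis label is kept here as given, and no cell or tissue name is put in its place. In bulk RNA, fewer cells of a type and less RNA per cell cannot be told apart.

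A gene was counted as higher or lower in refractory when log2(FPKM + 1) differed by at least 1, which is 2-fold on values plus 1 and understates the change of low genes. All differences below are refractory minus late stimulated on this scale. By this count 166 genes were higher in refractory (14.3% of the 1164) and 74 were lower (6.36%), which is 20.6% together, while 924 lay between. Symbols were available for 118 of the higher genes and 55 of the lower genes. The median difference over all genes was 0.14, the 10th and 90th percentiles were -0.78 and 1.26, and 679 genes had a positive difference. The levels of the 1164 genes in the 2 libraries ranked alike, with a Spearman correlation across genes of 0.84, in which the gene models are shared. Higher genes made up 69.2% of those past the threshold.

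This excess of higher genes depended on how the libraries were scaled. Scaling by the median of ratios shifted refractory down by 0.20 on the log2 scale. It left 128 genes higher (11% of those compared) and 109 lower (9.36%), so that 54.0% of the genes past the threshold were higher, and the median difference became -0.05. All 128 were among the 166, and all 74 lower genes stayed lower. Differences between 1 and about 1.20 are thus past the threshold only without this scaling.

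**Figure D1:**
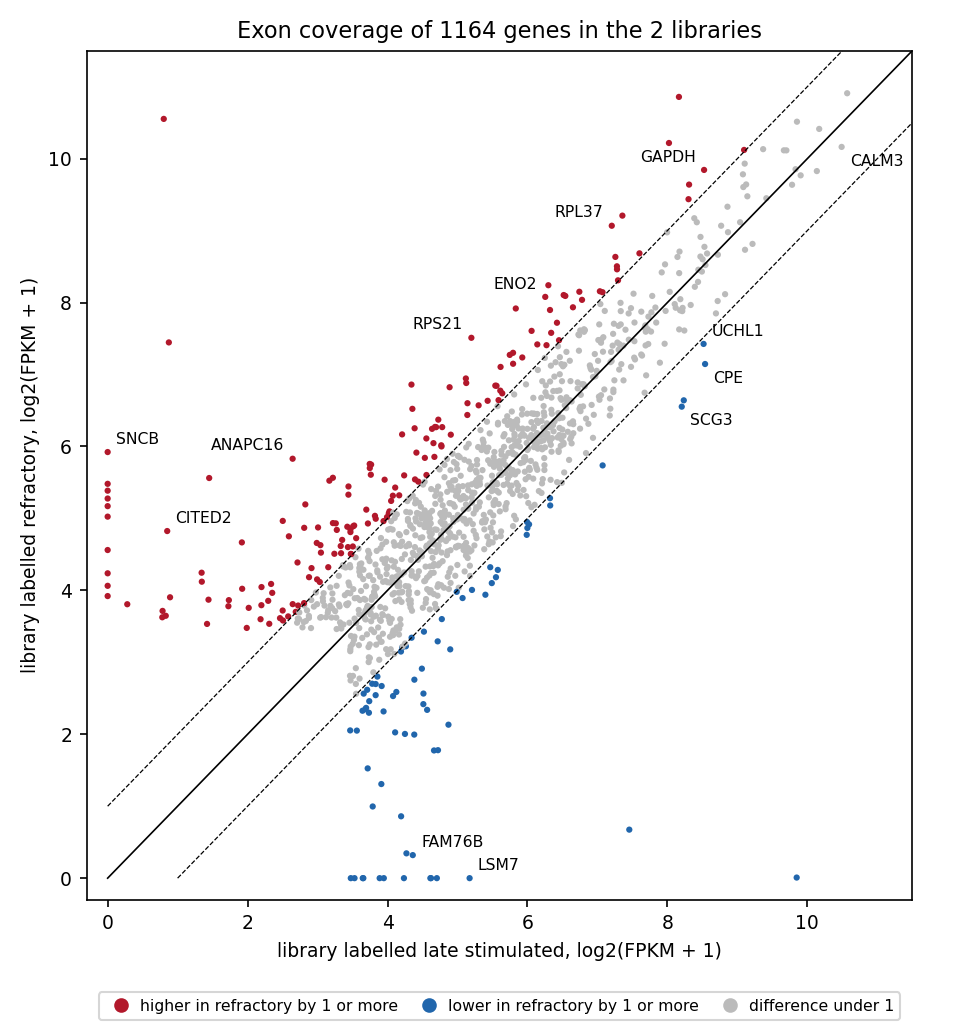
Each point is 1 of the 1164 genes, with log2(FPKM + 1) in late stimulated on the x axis and in refractory on the y axis; the solid line marks equal values and the dashed lines a difference of 1 either way. Most points lie close to the solid line, 166 lie above the upper dashed line and 74 below the lower one, and points on the axes are genes uncovered in 1 library.

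At the edges of these choices, FAM78A stood at 9.91 FPKM in late stimulated and 9.27 in refractory and was left out, while OAT entered with 8.66 and 10.02 FPKM. ACKR3 was counted as higher with a difference of 1.01, and TSSC4 was not with 0.9987.

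Gene length went with the direction of the difference. The 1164 genes were split into 5 groups by the exon length of their gene model, with 232 or 233 genes in each. In the shortest group, 51 to 645 bp, the median difference was 0.46, and 29.6% of genes were higher in refractory and 16.3% lower. The median difference was 0.31 at 648 to 1473 bp, 0.19 at 1474 to 2443 bp and 0.07 at 2454 to 3739 bp. In the longest group, 3748 to 8756 bp, it was -0.13, with 3.43% of genes higher and 3.86% lower. The medians thus fell in order from the shortest to the longest group, and the share of higher genes fell from 29.6% to 18.5%, 10.8%, 9.01% and 3.43%. The share of lower genes did not follow the same order, since only the shortest group stood out, and the other 4 groups lay between 3.43% and 4.31%.

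The median levels lay on opposite sides in the shortest and longest groups. In the shortest group the median level was 24.4 FPKM in late stimulated and 29.8 in refractory. In the longest group it was 37.4 FPKM in late stimulated and 32.4 in refractory. Across genes the Spearman correlation of the difference with exon length was -0.24 over all 1164 genes and -0.27 over the 1048 genes of at least 300 bp, so it was not carried by the smallest RNAs alone. The correlation was -0.14 with the number of exons and 0.06 with the mean level. These genes share 2 libraries, and the correlations are given as descriptions.

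When the median difference of each gene's exon length group was taken off, 118 genes were higher (10.1%) and 102 lower (8.76%). Of these, 117 and 72 were past the threshold before as well. Values adjusted in this way are given for those lists below whose count or sign they change. Adjusted counts of list members are to be read beside these shares. Counts after scaling are to be read beside the 11% higher and 9.36% lower of all genes. Of the genes described below as higher, GAP43, GNB3, RAB10, ATP6V1D, PFN2, CAPZB, HNRNPDL, SRSF11 and NDUFAB1, and ACBD7 among the further genes at the end, were no longer past the threshold after it, with adjusted differences from 0.71 for HNRNPDL to 0.98 for SRSF11.

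**Figure D2:**
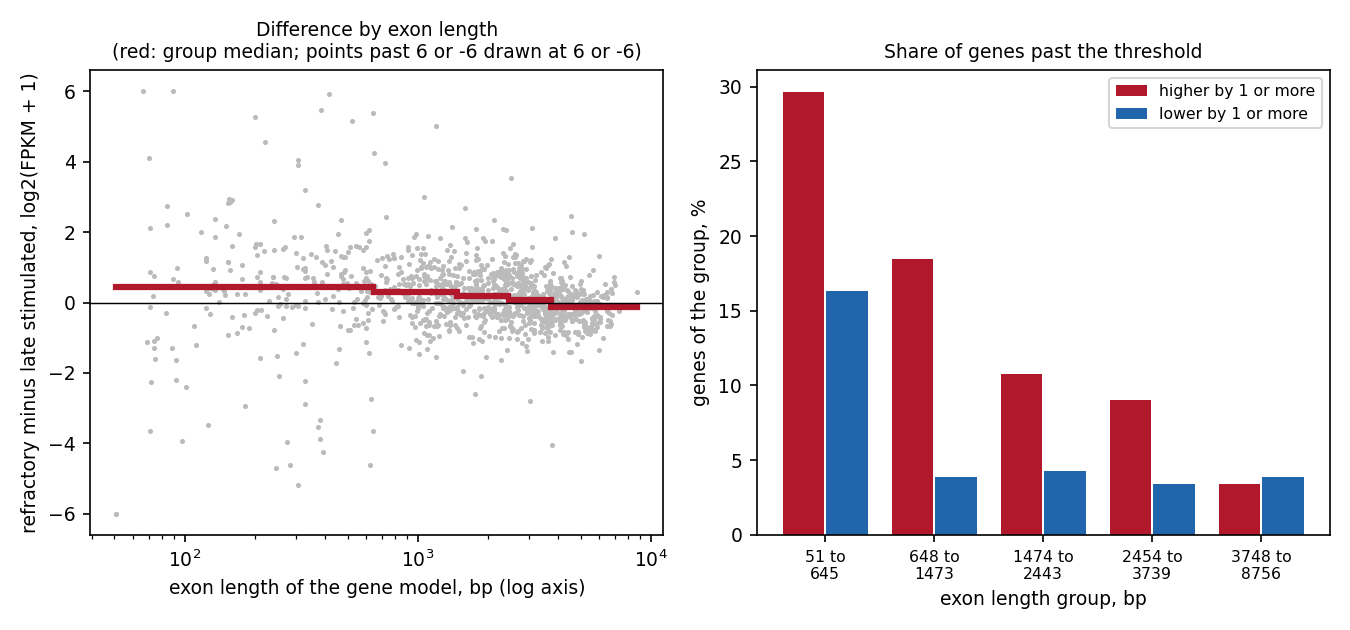
Left, the difference in log2(FPKM + 1), refractory minus late stimulated, of each gene against the exon length of its model on a log axis, with red lines for the median of each length group; right, the share of genes in each group that were higher (red) or lower (blue) by 1 or more. The medians fall from 0.46 in the shortest group to -0.13 in the longest, and the share of higher genes falls from 29.6% to 3.43%.

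Coverage along the gene model also differed. For 750 genes of at least 900 bp and 3 exons, the exon bases were divided into 3 equal parts from the start to the end of the gene. The last part minus the first part had a median of 0.05 in late stimulated and -0.17 in refractory on the log2(FPKM + 1) scale. It was 0.35 over 605 genes in sensitive and 0.004 over 738 genes in early stimulated. Refractory was therefore the library with relatively the most coverage towards gene starts among the 4. Refractory minus late stimulated was 0.15 at the median in the first part and -0.11 in the last part. The relation to exon length was there at both ends: it ran from 0.25 in the shortest to -0.05 in the longest of 5 groups in the first part, and from 0.12 to -0.34 in the last part. The part of this coverage along the gene model in the differences of single genes was not tested.

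**Figure D3:**
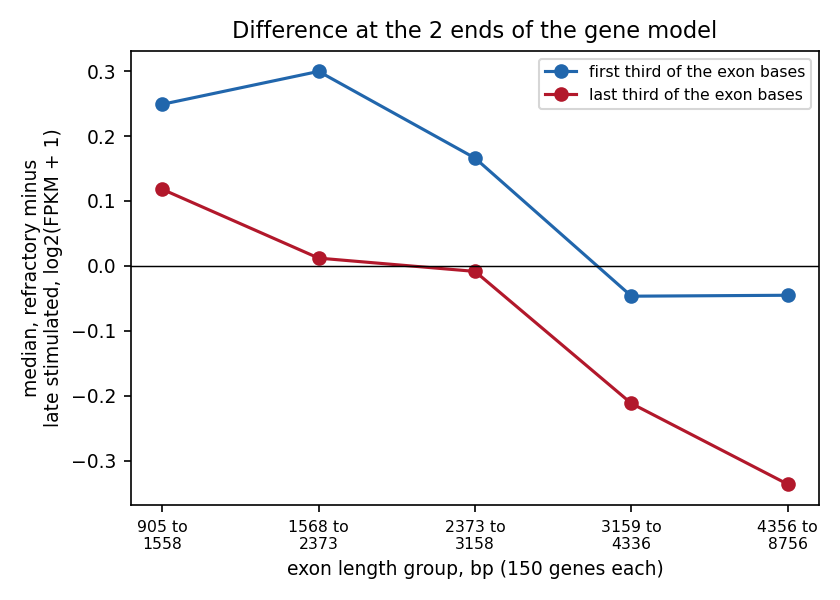
Median difference in log2(FPKM + 1), refractory minus late stimulated, over the first (blue) and last (red) part of the exon bases of 750 genes, in 5 groups of exon length. Both lines lie lower in the longest group than in the shortest, and the last part lies below the first in each group.

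Ribosomal proteins of the cytosol, which form the large and small subunits of the ribosome together with ribosomal RNA, had the highest median difference of the lists with at least 3 compared genes before any adjustment. Of 25 compared, 15 were higher in refractory (60%) and 2 lower (8%), against 14.3% and 6.36% of all genes. Of the 25, 22 had a positive difference, and the median was 1.27 against 0.14 over all genes. The median exon length of the compared members was 1177 bp. After adjustment for exon length 11 were higher and 2 lower, against 10.1% and 8.76% of all genes. The median difference was then 0.93, below the 1.05 of glycolysis. Under the genes' own names their median of 1.28 was below those of nuclear respiration genes (1.46) and of chaperones (1.85). After scaling by the median of ratios 14 were higher, against 11% of all genes, and the median was 1.07.

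RPL37, of the large subunit, stood at 1622, 337, 147 and 536 FPKM from sensitive to refractory. RPS21, of the small subunit, stood at 506, 138, 35.7 and 181 FPKM in the same order. Both were highest in sensitive, and late stimulated was the lowest of the 4 libraries. The differences between refractory and late stimulated were 1.86 for RPL37 and 2.31 for RPS21, the latter the highest of the list.

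RPS15A stood at 385, 115, 56.0 and 241 FPKM from sensitive to refractory, a difference of 2.08. RPL14 stood at 74.3, 31.3, 9.87 and 42.5 FPKM, a difference of 2.0. RPS3A stood at 118, 28.9, 12.4 and 51.0 FPKM, a difference of 1.95. In all 3, refractory lay above early as well as late stimulated and below sensitive.

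Other members did not follow. RPL30 stood at 459 FPKM in sensitive and 54.6 in early stimulated, and was at 73.5 in late stimulated and 45.7 in refractory, a difference of -0.67. RPS13 was at 33.8 FPKM in late stimulated and 37.9 in refractory. The 2 members counted as lower, RPL27A and RPL35, were uncovered in refractory and stood at 13.8 and 10.5 FPKM in late stimulated. A gene uncovered in refractory needs more than 16.7 FPKM in late stimulated to show a difference of 1 against the listing floor, so neither difference can be measured here. Summed over the 25 ribosomal protein genes compared, of 30 named in the files, the level was 9013, 2216, 1235 and 3012 FPKM from sensitive to refractory.

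The ribosomal proteins of mitochondria, encoded in the nucleus, had 4 of 6 compared genes higher (66.7%) and none lower, with a median of 1.12. Over all genes 14.3% were higher. The 4 higher members, MRPS25, MRPL18, MRPL33 and MRPS10, were below 10 FPKM in late stimulated and entered only through refractory. Their share is therefore not a result about this list. MRPS25 stood at 22.7, 22.0, 6.01 and 28.2 FPKM from sensitive to refractory, a difference of 2.06. MRPL18 stood at 18.6, 13.3, 3.59 and 15.5 FPKM, a difference of 1.85. For both, late stimulated was the lowest library, and its value for MRPL18 lies below its floor of 5.84 FPKM. The members that reached 10 FPKM in late stimulated did not follow. MRPL13 went the other way, at 25.3 FPKM in late stimulated and 14.2 in refractory, a difference of -0.79. MRPL57 was at 69.1 and 65.0 FPKM, a difference of -0.09. After scaling 2 members were higher, against 11% of all genes. After adjustment for length 2 were higher and 1 lower, against 10.1% and 8.76% of all genes.

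Translation factors did not move with the ribosomal proteins past the threshold. None of 11 was higher or lower, against 20.6% of all genes past the threshold. Their median of 0.08 turned to the negative side (-0.11) after scaling. After adjustment for length 1 was lower. EIF4A2, an RNA helicase that opens the start of messenger RNAs for the ribosome, was among the most abundant genes, at 1836, 1324, 1151 and 1363 FPKM from sensitive to refractory. Its difference was 0.24. EEF1B2, which recharges the elongation factor that brings transfer RNA, stood at 3378, 672, 550 and 975 FPKM, a difference of 0.83. EIF1, which helps to select the start codon, stood at 393, 436, 254 and 503 FPKM, a difference of 0.98 and the list's highest.

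Glycolysis, the breakdown of glucose to pyruvate, was represented by 5 enzymes, and each had a positive difference. In 4 of them (80%) the difference passed 1, against 14.3% of all genes. The list's median was 1.23, or 1.05 after adjustment for exon length and 1.03 after scaling, when 3 passed. GAPDH (scaffold JH603259.1, positions 1244147 to 1252064 of the flycatcher assembly) stood at 110, 739, 367 and 918 FPKM from sensitive to refractory. Its difference was 1.32, with 19.5% of the exon bases of its model covered in both libraries. ENO1, an enolase found in most cells, stood at 116, 295, 154 and 362 FPKM, a difference of 1.23.

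ENO2, the enolase of neurons, lies on the same scaffold as GAPDH and stood at 1.84, 140, 75.4 and 269 FPKM in the 4 libraries in the same order. Its difference of 1.82 was the highest of the list. Of the 2 libraries compared, only late stimulated listed transcripts under the name ENO2, and in refractory its exons were covered by transcripts not carrying that name. TPI1, the triose phosphate isomerase, stood at 56.1, 200, 130 and 284 FPKM, a difference of 1.12, or 0.92 after scaling. GPI, which converts glucose 6-phosphate to fructose 6-phosphate, stood at 87.4, 813, 660 and 1121 FPKM, a difference of 0.76. All 5 enzymes were lowest in sensitive and highest in refractory.

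Nuclear genes of mitochondrial respiration were few. Of 3 compared, 2 were higher, against 14.3% of all genes, and 1 after adjustment for length. NDUFA12, a subunit of complex I, stood at 142, 91.4, 34.3 and 96.1 FPKM from sensitive to refractory, a difference of 1.46. NDUFAB1, the mitochondrial acyl carrier protein, stood at 21.5, 27.0, 15.2 and 32.6 FPKM, a difference of 1.05 that became 0.86 after scaling. NDUFS4, of the same complex, was at 79.0 FPKM in late stimulated and 66.3 in refractory, a difference of -0.25. Outside the list, COX17, a copper chaperone for complex IV, was covered only in refractory, at 37.8 FPKM, at least 2.5 above the listing floor of late stimulated on the log2(FPKM + 1) scale. NDUFAF2, an assembly factor of complex I, stood at 9.36, 17.3, 8.31 and 46.3 FPKM, a difference of 2.35. Its refractory value came from transcripts not carrying its name.

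Genes of the mitochondrial DNA, which are transcribed as long precursors and then cut apart, went in both directions. The 4 compared genes of the protein-coding list had a median of 0.28, or -0.10 after adjustment for length. Of 22 features named on the mitochondrial sequence of the flycatcher assembly, 9 were compared, and 3 were higher and 4 lower in refractory. Over all genes 14.3% were higher and 6.36% lower. ND4 among the higher and COX1 among the lower were the only ones with a symbol. Besides COX1, the lower features were 69, 75 and 71 bp long. The last of these stood at 11.6 FPKM in late stimulated and was uncovered in refractory, so its difference cannot be measured above the floor. ND4 (positions 10258 to 11635), a subunit of complex I, stood at 43.0, 16.4, 25.5 and 81.9 FPKM from sensitive to refractory, a difference of 1.65. COX1 (positions 5385 to 6944), a subunit of complex IV, stood at 146, 1.22, 21.8 and 4.92 FPKM, a difference of -1.95. The gene ENSFALG00000016233 (positions 1120 to 2715 on the plus strand), which has no symbol in the files, stood at 989, 995, 286 and 1856 FPKM, a difference of 2.69. The neighbouring genes ATP8 and ATP6 lay within the threshold, with differences of 0.26 and 0.31. Mitochondrial genes therefore showed no common shift between these libraries.

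**Figure D4:**
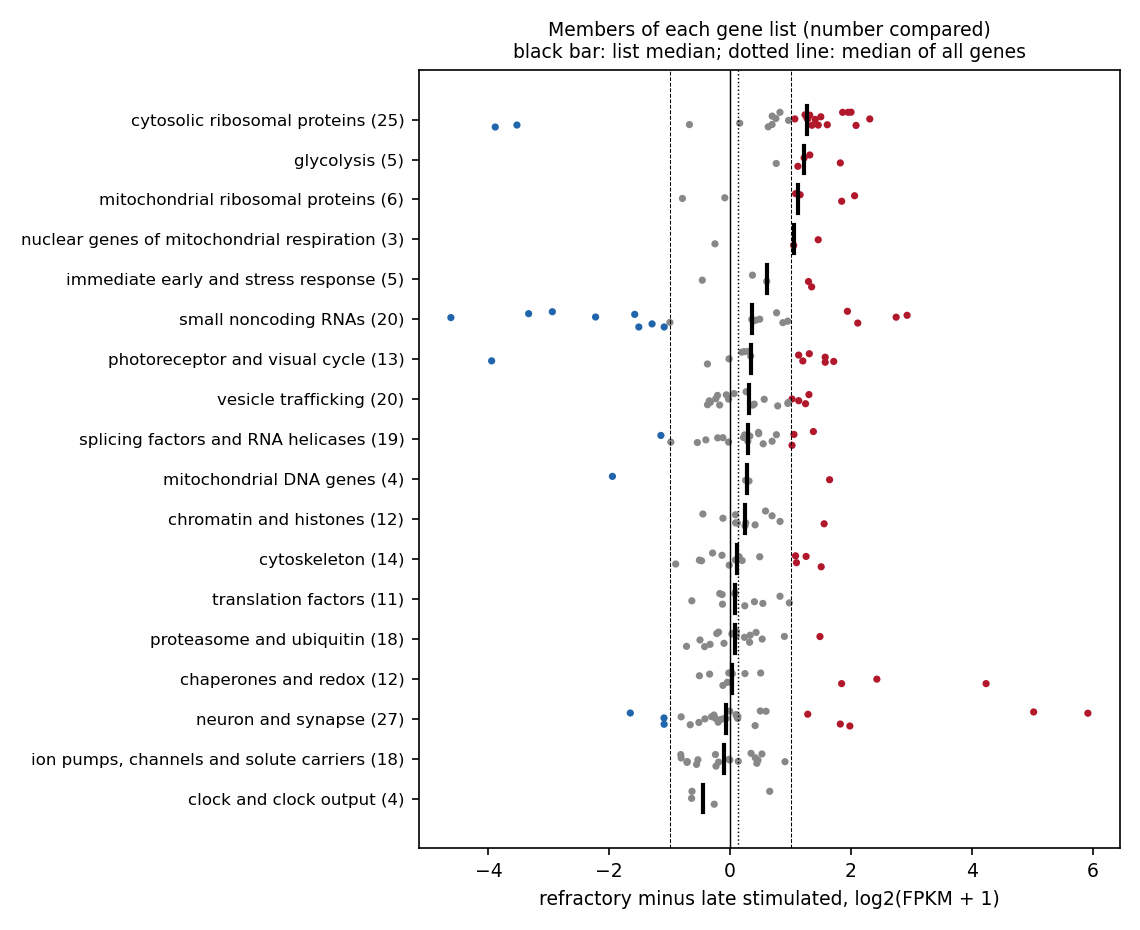
Each point is a compared member of a gene list with at least 3 compared members, placed by its difference in log2(FPKM + 1), refractory minus late stimulated; black bars mark list medians, the dotted line the median of all genes and the dashed lines a difference of 1 either way. Ribosomal proteins and glycolysis have medians of 1.27 and 1.23, and clock genes and ion transport genes have medians below 0.

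Of the marker lists, only photoreceptor genes and genes of neurons and synapses had at least 3 compared genes. The share past the threshold was larger for photoreceptor genes, which turn light into an electrical signal in rods and cones. Of 13 compared, 6 were higher (46.2%) and 1 lower (7.69%), against 14.3% and 6.36% of all genes, with a median of 0.34. After adjustment for exon length 4 were higher, against 10.1% of all genes, and the median was 0.12. After scaling 5 were higher, against 11% of all genes, and the median was 0.14. Their summed level was 25.8, 1704, 1005 and 1823 FPKM from sensitive to refractory, so refractory and early stimulated lay close together. Uncovered genes count as 0 in these sums, though in sensitive each can lie below about 20.8 FPKM. The part of this marker level in the differences of other genes was not tested.

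The higher members included subunits of transducin, the G protein that opsins activate, and a protein that binds it. PDC (phosducin), which binds the beta and gamma subunits of transducin, was uncovered in sensitive and stood at 200, 79.0 and 237 FPKM from early stimulated to refractory, a difference of 1.57. GNAT2, the transducin alpha subunit of cones, was uncovered in sensitive and stood at 101, 59.8 and 150 FPKM in the other 3, a difference of 1.31. GNB3, the transducin beta subunit of cones, was uncovered in sensitive and stood at 78.5, 42.1 and 98.4 FPKM, a difference of 1.20. Transducin subunits and their partner thus shared 1 order, with late stimulated the lowest of the 3 libraries that covered them.

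GUCA1A, which lets calcium control guanylate cyclase, stood at 112, 24.9 and 76.1 FPKM from early stimulated to refractory, a difference of 1.57. RLBP1, which carries retinal in the visual cycle, stood at 24.7, 8.32 and 29.6 FPKM, a difference of 1.72. Neither was covered in sensitive.

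Other members of the light response lay within the threshold. PDE6H, the inhibitory subunit of the cone phosphodiesterase, stood at 189, 184 and 210 FPKM from early stimulated to refractory. GUCA1C, a relative of GUCA1A, stood at 136, 149 and 188 FPKM. GRK7, the kinase that shuts off cone opsins, stood at 40.8, 39.2 and 46.3 FPKM, and RGS9BP, which anchors the protein that speeds transducin's return to rest, was 0.30 higher in refractory. RBP3, the retinoid carrier between photoreceptors and their support cells, was at 25.4 FPKM in late stimulated and 19.4 in refractory, and the potassium channel gene KCNV2 at 21.5 and 21.2 FPKM. The lower member, PDE6G, was at 14.4 FPKM in late stimulated and uncovered in refractory, a difference that cannot be measured above the floor. Among photoreceptor genes, then, the difference between these libraries was uneven: from -0.38 for RBP3 to 1.72 for RLBP1 among the genes named here that were covered in both.

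**Figure D5:**
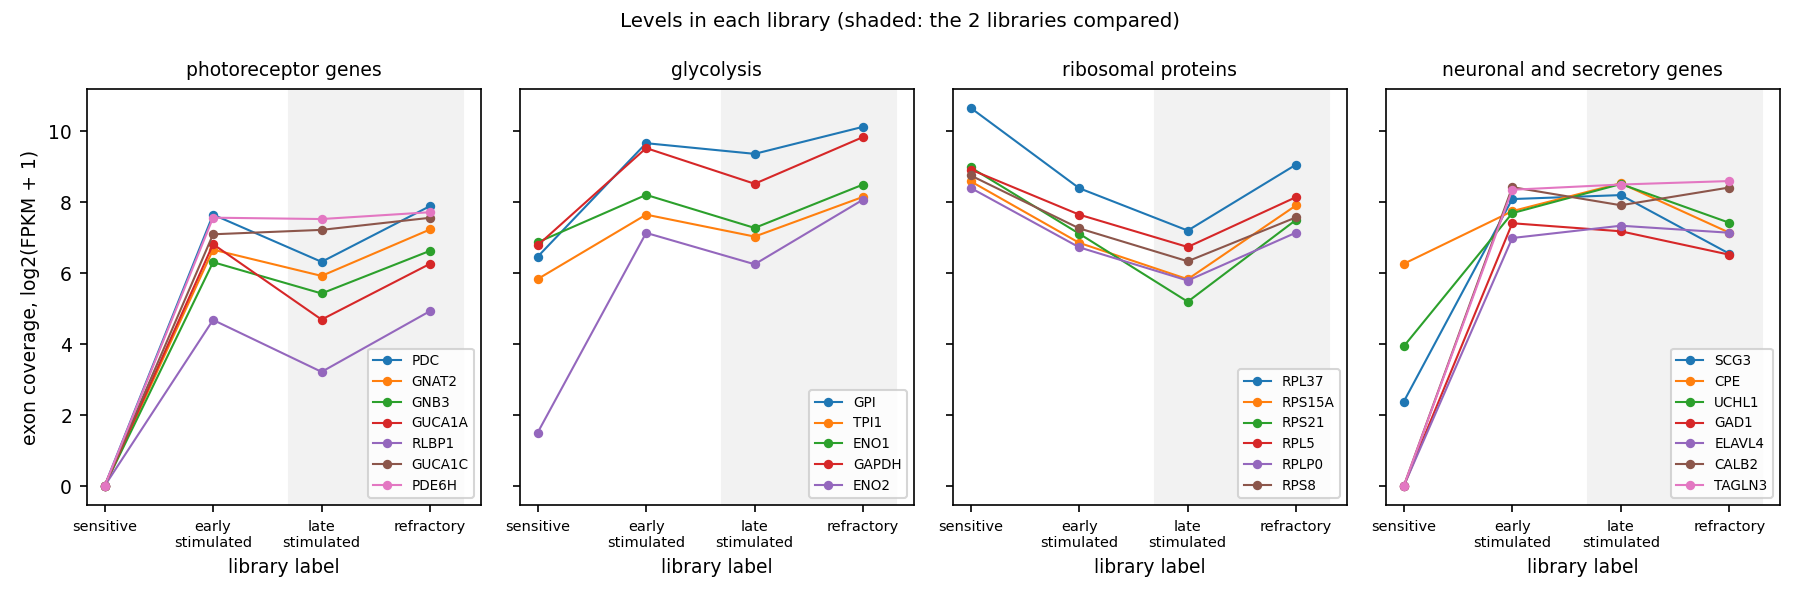
Exon coverage as log2(FPKM + 1) in each of the 4 libraries for genes of 4 groups, with lines joining the values of a gene and the libraries compared here shaded. The 5 glycolysis genes and 6 ribosomal protein genes shown lie higher in refractory than in late stimulated, while SCG3, CPE and UCHL1 lie lower.

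Genes of neurons and synapses did not shift together. Of 27 compared, 5 were higher (18.5%) and 3 lower (11.1%), against 14.3% and 6.36% of all genes, and the median was -0.07. Besides ENO2, the higher members were SNCB, HPCA, NCS1 and GAP43. SNCB (beta-synuclein) was uncovered in sensitive and late stimulated and stood at 36.6 FPKM in early stimulated and 59.6 in refractory, at least 3.15 above the floor of late stimulated. HPCA (hippocalcin), a calcium sensor, was uncovered in the same libraries and stood at 14.7 and 31.6 FPKM, at least 2.25 above that floor. Its refractory value came from transcripts not carrying its name, over 17.1% of its exon bases. NCS1, another neuronal calcium sensor, stood at 37.8, 12.6 and 52.8 FPKM from early stimulated to refractory, a difference of 1.98, or 1.11 over the exon bases covered in both libraries. GAP43, a protein of growing axons, stood at 21.6, 9.06 and 23.5 FPKM, a difference of 1.29. Transcripts under the name GAP43 alone went the other way, at 9.87 FPKM in late stimulated and 3.03 in refractory. For these 4 genes late stimulated was below both early stimulated and refractory. Sensitive had no coverage of them, which leaves any level below about 20.8 FPKM possible there. After adjustment for length 4 of the 27 were higher and 3 lower, against 10.1% and 8.76% of all genes.

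The lower members were SCG3, UCHL1 and ELAVL2. SCG3 (secretogranin III), which helps to form dense-core secretory granules, stood at 4.21, 272, 294 and 92.9 FPKM from sensitive to refractory, a difference of -1.65. UCHL1, a deubiquitinating enzyme abundant in neurons and in spermatogonia, stood at 14.4, 206, 365 and 171 FPKM, a difference of -1.09. ELAVL2, an RNA-binding protein, stood at 21.3, 21.9 and 9.75 FPKM in the 3 libraries after sensitive, a difference of -1.09. Of SCG3 and UCHL1, late stimulated listed no transcript under the gene's own name, and its values come from transcripts over their exons that carry other names or none. CPE (carboxypeptidase E), which trims peptide hormones in the same granules and was in no list, stood at 76.0, 215, 371 and 141 FPKM, a difference of -1.39. SCG3, UCHL1 and CPE were thus highest in late stimulated and lower in refractory than in early stimulated.

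Abundant neuronal genes lay within the threshold. PCP4, a calmodulin regulator, stood at 51.3, 839, 831 and 1108 FPKM from sensitive to refractory. TAGLN3 was at 362 FPKM in late stimulated and 387 in refractory, and CALB2 (calretinin) at 241 and 341 FPKM. The genes of enzymes that make the inhibitory transmitter GABA were lower without passing the threshold. GAD1 stood at 169, 144 and 91.1 FPKM from early stimulated to refractory, a difference of -0.66, and GAD2 was at 136 and 110 FPKM, a difference of -0.31. Of glia, SLC1A3, a glutamate transporter, was at 116 FPKM in late stimulated and 78.6 in refractory, and the water channel AQP4 at 35.1 and 22.2 FPKM, both within the threshold.

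Ion pumps, channels and solute carriers had no member of 18 past the threshold, against 20.6% of all genes, and a median of -0.10. After scaling, 2 were lower, against 9.36% of all genes, and the median was -0.30. The bicarbonate transporter SLC4A10 stood at 141, 122 and 68.6 FPKM in the 3 libraries after sensitive, where it was uncovered, a difference of -0.82. ATP1B3, a beta subunit of the sodium pump, stood at 114, 339, 453 and 277 FPKM from sensitive to refractory, a difference of -0.71. KCNC1, a potassium channel of fast-firing neurons, went the other way, at 15.6 FPKM in late stimulated and 30.1 in refractory.

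Vesicle trafficking genes included 4 higher members of 20, against 14.3% of all genes, and none lower, with a median of 0.32. After adjustment for length 2 were higher, against 10.1% of all genes. RAB10, a small GTPase of transport to the cell surface, stood at 52.2, 87.2, 45.6 and 114 FPKM from sensitive to refractory, a difference of 1.3. ATP6V0D1, a subunit of the proton pump that acidifies vesicles, stood at 13.4, 54.4, 26.2 and 63.7 FPKM, a difference of 1.25. ATP6V1D, of the same pump, stood at 47.5, 116, 86.5 and 177 FPKM, a difference of 1.03 that became 0.83 after scaling. RAB7A, a GTPase of late endosomes, had a difference of 1.14 over its whole model and of -0.15 over the exon bases covered in both libraries. After scaling, RAB10 and ATP6V0D1 were the members past the threshold.

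Cytoskeletal genes had 4 of 14 higher (28.6%), against 14.3% of all genes, and none lower. Their median of 0.12 became -0.08 after scaling, when 2 were higher and 1 lower, against 11% and 9.36% of all genes. After adjustment for length 2 were higher and none lower, against 10.1% and 8.76% of all genes. ARPC2, of the complex that branches actin filaments, stood at 188, 93.9, 54.5 and 157 FPKM from sensitive to refractory, a difference of 1.51. PFN2 (profilin of neurons), which supplies actin monomers, stood at 85.1, 97.5, 109 and 262 FPKM, a difference of 1.26. ACTB, the actin of non-muscle cells, stood at 1265, 296, 193 and 410 FPKM, a difference of 1.08, or 0.88 after scaling. CAPZB, which caps actin filaments, had a difference of 1.10, or 0.90 after scaling. ACTR2, a partner of ARPC2 in the same complex, was at 54.5 FPKM in late stimulated and 28.7 in refractory, a difference of -0.90, or -1.09 after scaling. Over the 38.4% of its exon bases covered in both libraries, the difference of ACTR2 was 0.33.

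Splicing factors and RNA helicases had 3 of 19 higher and 1 lower, which is 15.8% and 5.26% and close to the 14.3% and 6.36% of all genes. After adjustment for length 1 was higher and 1 lower. SNRPD1, a core protein of spliceosomal particles, stood at 24.6, 13.5, 10.1 and 27.8 FPKM from sensitive to refractory, a difference of 1.38. HNRNPDL, which binds RNA, was at 546 FPKM in late stimulated and 1113 in refractory, a difference of 1.02, or 0.83 after scaling. SRSF11 was at 47.1 and 99.0 FPKM, a difference of 1.06, or 0.86 after scaling. DDX6, a helicase of messenger RNA storage and decay, stood at 29.9, 60.0, 79.2 and 35.3 FPKM, a difference of -1.15. PTBP2, the splicing regulator of neurons, was at 31.4 FPKM in late stimulated and 15.4 in refractory, a difference of -0.98, or -1.17 after scaling.

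Chaperones and redox genes had 3 of 12 higher (25%), against 14.3% of all genes, and none lower. Their median of 0.03 became -0.17 after scaling. HSPA2, a heat shock protein known in mammals for its role in spermatocytes, stood at 28.2, 34.4, 12.6 and 47.7 FPKM from sensitive to refractory, a difference of 1.85. SOD3, the secreted superoxide dismutase, stood at 139, 3.42, 1.72 and 13.6 FPKM, a difference of 2.43. Its late stimulated value lies below the floor of 5.84 FPKM, so the size is unsure. GSTZ1, a glutathione transferase, was uncovered in late stimulated and stood at 17.9 FPKM in refractory, at least 1.46 above the floor. The abundant HSP90AA1, a chaperone of kinases and receptors, was at 681 and 698 FPKM in late stimulated and refractory, and PRDX1, a peroxidase, at 372 and 366 FPKM.

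Proteasome and ubiquitin genes had 1 of 18 past the threshold, against 20.6% of all genes. Their median was 0.07, or -0.12 after scaling and -0.04 after adjustment for length, when 1 was higher and 1 lower. The gene past the threshold was RBX1, the RING protein of cullin ubiquitin ligases. It stood at 99.1, 56.8, 26.5 and 76.1 FPKM from sensitive to refractory, a difference of 1.49. Chromatin genes likewise had 1 of 12 past it, with a median of 0.25 that became -0.02 after adjustment for length. HMGB2, a DNA-bending protein, stood at 44.4, 49.99, 22.5 and 68.1 FPKM, a difference of 1.56.

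Clock and clock output genes, which form and read the daily oscillator, had none of 4 past the threshold, against 20.6% of all genes. NFIL3, a repressor of clock output, stood at 39.7, 279, 302 and 195 FPKM from sensitive to refractory, a difference of -0.63. HLF, an activator at the same DNA sites, was at 33.8 FPKM in late stimulated and 21.4 in refractory, a difference of -0.64. TEF, of the same family as HLF, was at 20.4 and 32.7 FPKM, a difference of 0.66. NR1D2, a nuclear receptor that represses clock genes, was at 89.4 and 74.3 FPKM. Of immediate early and stress genes, 2 of 5 were higher (40%), against 14.3% of all genes. JUN, a subunit of the transcription factor AP-1, stood at 55.7, 14.9, 9.21 and 25.02 FPKM, a difference of 1.35. ATF4, the transcription factor of the integrated stress response, stood at 90.9, 157, 84.7 and 210 FPKM, a difference of 1.3.

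Outside these lists, the largest differences among genes covered in both libraries belonged to very short genes. ENSFALG00000015904, of 66 bp, stood at 1.67, 3987, 0.74 and 1501 FPKM from sensitive to refractory, a difference of 9.75. ENSFALG00000015546, of 51 bp, stood at 10346, 0.60, 921 and 0.01 FPKM, a difference of -9.84. The first was high in early stimulated and refractory, and the second in sensitive and late stimulated. The low sides, 0.74 FPKM in late stimulated and 0.01 in refractory, lie below the floors of 5.84 and 7.86 FPKM for transcripts without a reference match. The sizes of both differences are therefore unsure. Among the 12 genes with the highest differences 4 had a symbol, and among the 12 with the lowest 6 had one.

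CITED2, which binds the coactivators CBP and p300, stood at 2.11, 0.71, 0.80 and 27.3 FPKM from sensitive to refractory, a difference of 3.97. ANAPC16, a subunit of the anaphase-promoting complex, was uncovered in sensitive and stood at 9.27, 5.25 and 55.9 FPKM in the other 3, a difference of 3.19. For both genes refractory had the highest value. The values in the other libraries lie below the floors of those libraries, so how far refractory stood apart is unsure. MESDC1 stood at 21.9, 15.6, 0.86 and 14.0 FPKM, a difference of 3.01, and here late stimulated had the lowest value, again below its floor.

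At the lower end, FAM76B, B4GALT6 and UBE2QL1 were assembled over only a small share of their exon bases in refractory. The other 9 of the 12 lowest genes were covered over 100% of theirs, though at levels down to 0.01 FPKM for ENSFALG00000015546. FAM76B stood at 19.6, 15.5, 19.5 and 0.25 FPKM from sensitive to refractory, a difference of -4.04, with 2.15% of its exon bases covered in refractory. Over the bases covered in both libraries its difference was -1.86. B4GALT6, a galactosyltransferase of glycolipid synthesis, had a difference of -2.79, and of -0.60 over the shared bases. UBE2QL1 had a difference of -2.74, which turned to 0.41 over the shared bases, 1.90% of the model. ENC1, an actin-binding protein of the nervous system, stood at 4.07, 12.6, 14.1 and 1.48 FPKM, a difference of -2.60. Its refractory value lies below the floor of 7.86 FPKM, so the size is unsure. Among all genes past the threshold, 39 of the higher and 23 of the lower genes had less than 50% of their exon bases covered in both libraries. The same share over all genes compared was not counted, so these counts are not read as a trait of genes past the threshold. Over shared bases alone, 171 of 1143 genes were higher and 63 lower, of which 143 and 51 were counted so over the whole model too.

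Coverage was missing in late stimulated for 10 compared genes and in refractory for 11. Of those absent from late stimulated, RPS19BP1 stood at 30.5 FPKM in early stimulated and 43.7 in refractory, at least 2.71 above the floor. Of those absent from refractory, LSM7, of the ring that binds the ends of RNAs in splicing and decay, stood at 109, 52.7 and 35.1 FPKM in sensitive, early stimulated and late stimulated. With refractory put at its floor the difference is -2.03, so it is at least that low. CTNNBIP1, an inhibitor of beta-catenin, stood at 31.3 FPKM in early stimulated and 25.1 in late stimulated, a difference of -1.56 with refractory at its floor.

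Small noncoding RNAs, which guide splicing and the modification of ribosomal RNA or control transcription, were the list with the most lower members. Of 20 compared, 4 were higher (20%) and 8 lower (40%), against 14.3% and 6.36% of all genes, although the median was 0.37. Their median exon length was 134 bp, and in the shortest length group 29.6% of genes were higher and 16.3% lower. After adjustment for length 4 were higher and 9 lower, against 10.1% and 8.76% of all genes. The sign of the median difference was not stable. It was -0.09 after adjustment for length, -0.38 at 1 FPKM or more and -0.43 with no filter. At 20 FPKM or more it was -1.58, and without genes under 300 bp -2.78. Both of these settings kept only some of the 20 genes, so they do not describe the whole list. The spliceosomal RNA U2 stood at 23.9, 11.4, 17.3 and 0.81 FPKM from sensitive to refractory, a difference of -3.33. 7SK, which holds the elongation factor P-TEFb inactive, stood at 12.3, 11.6, 22.7 and 4.06 FPKM, a difference of -2.23. The refractory values of U2 and 7SK lie below the floor of 7.86 FPKM, so the sizes of these differences are unsure. SNORD97 stood at 41.3, 339, 77.7 and 302 FPKM, a difference of 1.94.

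The most abundant protein-coding genes with a symbol differed little. CALM3, a calmodulin gene, stood at 311, 790, 1438 and 1146 FPKM from sensitive to refractory, a difference of -0.33. OAZ1, the antizyme that limits polyamine synthesis, stood at 605, 1145, 923 and 1461 FPKM, a difference of 0.66.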

How the data were processed

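The 4 libraries of RNA labelled as testis were each assembled by the authors on their own, with StringTie 1.3.3b and with gene models of another songbird, the collared flycatcher (Ensembl 89, assembly FicAlb_1.4), as a guide, per the file headers. The submitters' processing notes name Trimmomatic. Which aligner was used is not given in the sources here. The deposited values are FPKM, TPM and per-base coverage of transcripts and exons. None is a count, so no interval or limit from counting is given.

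A gene's value is the summed coverage of its exon bases by listed transcripts of either kind, named or not, on the gene's strand or with no strand, per exon base, divided by the file's own coverage per FPKM, which gives FPKM units. The exons are those of its reference-matched transcripts in any of the 4 libraries. Coordinates are those of FicAlb_1.4. Overlapping genes and paralogs can share coverage, which matters for ribosomal proteins and mitochondrial genes. Differences are of log2(FPKM + 1) with a threshold of 1, over genes reaching 10 FPKM in 1 or both libraries. The length-adjusted value subtracts the median difference of the gene's own exon length group, 1 of the 5 groups described above. Floors replace an uncovered value by the FPKM at a coverage of 2.5.

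Genes named are the 12 highest and 12 lowest differences among genes covered in both libraries, the 6 highest of those uncovered in the other, the 6 most abundant, and of each list up to 5 largest differences and 3 abundant members within the threshold. Of genes without a symbol, at most 2 each way are named. Others named, among them GNB3, GRK7, RBP3, KCNV2, GAD1, GAD2, CPE, NDUFAF2, RPS13, and the genes at the edges, were chosen after their values were seen. Members, 21 lists and tests were chosen with earlier results of these data known, and 2 lists (small noncoding RNAs and mitochondrial ribosomal proteins) were added after the values were seen. For some list members no value of their own is reported here, but counts and medians of lists include them.

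Alternatives were 11 planned and 3 added after seeing the data. The code for gene values was tested by writing known fold changes into transcripts of the late stimulated library and reading them back. Length adjustment, floors and scaling were not part of that test. Python 3.11.15, pandas 2.3.3, NumPy 2.4.6 and matplotlib 3.10.9 were used.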

Additional observations from a re-analysis of the deposited data

Results flagged for a closer look

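Most of what was assembled is outside the comparison. Transcripts that match no reference gene held 93.2% of the listed TPM in late stimulated and 91.8% in refractory. These transcripts enter the values only where they cover the exons of a named gene, and the files give them no gene name. No control sample or replicate stands beside either share.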

How the results depend on the processing

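With 1 library per state, values have no replicate error, no library could be left out, and overlapping genes share coverage. No paired analysis was possible because each state has 1 library. The 166 higher and 74 lower genes became 318 and 181 at 1 FPKM or more and with no filter, 278 and 235 under the gene's own name, and 97 and 36 without the shortest length group. At 20 FPKM or more 36 were lower. Under their own names, 242 of the genes compared were not listed in late stimulated and 291 in refractory. The shortest minus the longest length group, 0.59 at the median, was 0.389 with no filter.

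List medians moved as follows. Ribosomal proteins had 0.93 after adjustment for length, and glycolysis 0.94 under own names. Nuclear respiration genes had 0.90 with a pseudocount of 5, 0.40 at 1 FPKM or more, with no filter and without the shortest group, 0.86 after scaling and over shared bases, and 0.74 after adjustment for length. Mitochondrial ribosomal proteins had 0.84 with a pseudocount of 5, 0.94 after scaling and 0.80 after adjustment for length. At 20 FPKM or more, with only MRPL13, MRPL57 and MRPS25 left, their median was -0.088, the other side of 0. Chaperones had 1.85 under own names. Small noncoding RNAs had -1.58 at 20 FPKM or more and -2.78 without genes under 300 bp, both over only some of the 20 genes compared.

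Of single genes, the direction turned over shared bases for UBE2QL1 (0.41) and RAB7A (-0.15), and under own names for ENO2 (-6.24), SCG3 (5.13), UCHL1 (7.42) and HNRNPDL (-3.64). Under own names an unlisted gene counts as 0. Elsewhere the cause was not tested. No other gene that the naming rule picks and that was past the threshold turned its direction in those of the 14 alternatives that compared it. Genes below 10 FPKM under their own names in both libraries were not compared in that alternative. Among them, MRPS10 stood at 7.18 FPKM in late stimulated and 0 in refractory under its own name. ENSFALG00000001211 stood at 1.54 and 0 FPKM, and RBX1 at 1.72 and 1.65 FPKM, so these values also run opposite to their main differences.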

Other observations

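A few further genes past the threshold, chosen after their values were seen, belong to none of the lists. GNG13, a G protein gamma subunit of taste cells and of retinal bipolar cells, was uncovered in sensitive and stood at 121, 90.6 and 274 FPKM from early stimulated to refractory, a difference of 1.59. ACBD7, of the family that binds acyl-coenzyme A, was uncovered in sensitive and stood at 617, 316 and 797 FPKM, a difference of 1.33, or 0.87 after adjustment for exon length. CEBPG, a partner of other leucine zipper transcription factors, stood at 31.6, 58.5, 28.6 and 112 FPKM from sensitive to refractory, a difference of 1.94. In each of these late stimulated was below both early stimulated and refractory.

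Of genes lower in refractory, 3 are given, likewise chosen after their values were seen. NDFIP2, an adaptor of NEDD4 ubiquitin ligases, stood at 78.3, 73.4, 134 and 52.3 FPKM from sensitive to refractory, a difference of -1.34. RRAGC, a GTPase that brings mTORC1 to the lysosome, stood at 37.4, 26.2, 45.9 and 17.2 FPKM, a difference of -1.37. THRB, a thyroid hormone receptor, was uncovered in sensitive and stood at 25.5, 30.8 and 14.8 FPKM, a difference of -1.01. These genes were highest in late stimulated.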
